A study of Mus musculus with 9 samples.

Results

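Receptors for lipid and nucleotide signals that position leukocytes in the spleen were taken as 10 genes of the 39179 in the count table, chosen by their symbols. They were the sphingosine-1-phosphate (S1P) receptor genes S1pr1, S1pr2, S1pr3 and S1pr4, the oxysterol receptor gene Gpr183, the P2Y-type receptor genes P2ry6, P2ry10, P2ry13 and P2ry14, and the prostaglandin E2 receptor gene Ptger4. RNA was sequenced from 3 subsets of dendritic cells (DC) sorted from the spleens of C57BL/6J mice at steady state, with no stimulus given. CD8pos cDC1 and CD8neg cDC2 are the 2 conventional DC subsets, divided by surface CD8, and pDC are plasmacytoid DC. Each subset had 3 replicate libraries, and each replicate came from pooled spleens of 15 to 17 mice whose age the labels do not give, so a value here is an average over many animals and the p-values measure the spread between pools. The labels name no transgene or deletion, and the sort defines a gate, not a location within the spleen. The comparisons asked how the transcripts of these receptors differed between the subsets.

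S1P is made inside cells by sphingosine kinases, is abundant in blood and lymph and scarce within tissue, and acts on 5 receptors. S1PR1 couples to inhibitory G proteins and drives movement toward S1P and exit into circulation, whereas S1PR2 signals through G proteins that activate RhoA and restrains migration. S1PR4 is found mainly on leukocytes, and S1PR3 is best known from marginal zone B cells and vessels. GPR183, also called EBI2, responds to oxysterols made from cholesterol by CH25H and CYP7B1 and broken down by HSD3B7, and is known for placing activated B cells and cDC2 at the outer edge of the white pulp. P2RY13 responds to ADP, P2RY14 to UDP-glucose and related sugars, P2RY6 to UDP, and P2RY10 to lysophosphatidylserine. PTGER4, also called EP4, responds to prostaglandin E2 and raises cyclic AMP.

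The stretches just upstream of the RefSeq transcription starts are shown for 2 pairs of related genes that differed between subsets in different ways, S1pr2 with S1pr4 and P2ry13 with P2ry14. RefSeq (GRCm38.p6) gave 12 starts for 8 of the 10 genes, and none was found for S1pr1 or P2ry6. Each sequence below holds the 250 bases before the start, 5′ to 3′ on the gene's own strand. Capitals mark matches on either strand to the letters CANCTG (E-box), GAGGAA (a core bound by PU.1 and its relatives) or TGTGGT (a RUNX core), and no 2 matches overlapped in these windows. The S1pr2 window lies at chr9:20976794-20977043, the S1pr4 window at chr10:81500138-81500387 and the P2ry13 window at chr3:59210883-59211132, all on the minus strand. P2ry14 has 4 annotated starts, and the one shown is the farthest upstream, at chr3:59153493-59153742 on the minus strand, though which start was used in these cells was not measured.
S1pr2: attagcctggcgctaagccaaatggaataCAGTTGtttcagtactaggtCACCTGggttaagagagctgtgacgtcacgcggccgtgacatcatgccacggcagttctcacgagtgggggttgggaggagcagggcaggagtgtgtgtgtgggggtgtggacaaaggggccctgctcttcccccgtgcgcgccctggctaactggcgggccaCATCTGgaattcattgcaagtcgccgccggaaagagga
S1pr4: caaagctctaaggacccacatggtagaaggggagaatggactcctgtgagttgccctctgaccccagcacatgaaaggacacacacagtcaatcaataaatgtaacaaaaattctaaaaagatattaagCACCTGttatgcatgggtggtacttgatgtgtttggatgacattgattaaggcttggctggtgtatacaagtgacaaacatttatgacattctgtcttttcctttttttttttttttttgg
P2ry13: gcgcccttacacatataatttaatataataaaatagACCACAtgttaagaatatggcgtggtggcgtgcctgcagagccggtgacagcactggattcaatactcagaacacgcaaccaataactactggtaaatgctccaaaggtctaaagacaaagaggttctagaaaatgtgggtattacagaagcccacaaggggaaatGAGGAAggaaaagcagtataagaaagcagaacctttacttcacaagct
P2ry14: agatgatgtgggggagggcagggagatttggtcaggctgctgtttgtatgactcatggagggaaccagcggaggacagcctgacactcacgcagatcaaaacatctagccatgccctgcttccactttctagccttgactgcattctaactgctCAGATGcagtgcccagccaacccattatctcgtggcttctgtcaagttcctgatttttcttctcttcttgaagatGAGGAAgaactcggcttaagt
The S1pr2 window held 14 CpG dinucleotides and 59.2% G or C, while the S1pr4 window held 0 CpG and 38.8% G or C. The median over all 32851 promoters in the table was 6 CpG. The P2ry13 window had 1 RUNX match and 1 PU.1-like match, and the P2ry14 window had 1 E-box and 1 PU.1-like match. Such letters are common, since 44.8% of all promoter windows held the E-box letters, 23.3% the PU.1-like letters and 14.05% the RUNX letters, so a match is a description of the sequence and not evidence of a bound site.

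The libraries held between 15806597 and 32453789 counts on genes, so the floor of 3 counts lay between 0.0924 and 0.190 CPM of these raw totals. The floor covers counting error only. Levels below are in TMM-normalized CPM, that is, read counts scaled to a common library total with edgeR's correction between libraries. The cDC1 and pDC markers followed the labels. The summed level of 8 cDC1 markers was between 7798 and 8415 CPM in cDC1 and between 909 and 2163 CPM elsewhere. The sum of 8 pDC markers was between 13691 and 13892 CPM in pDC and at most 298 CPM elsewhere. The sum of 8 cDC2 markers did not separate cDC2 (2532 to 2715 CPM) from pDC (2443 to 2620 CPM), because Cd4, Cd209a and Sirpa were abundant in pDC, but Itgam, Clec4a4, Esam and Dtx1 were each higher in every cDC2 library than in any other library. Among markers of other cells, the 8 B cell markers summed to between 2730 and 4172 CPM in pDC and between 517 and 624 CPM in the other subsets, nearly all of it Ighm, while Pax5 did not exceed 0.405 CPM in any library. The 10 macrophage and monocyte markers summed to between 1985 and 2884 CPM in pDC, nearly all of it Ly6c2, and to at most 395 CPM elsewhere, and the sum of 10 endothelial and stromal markers was between 496 and 507 CPM in pDC, nearly all of it Cdh5 and Kdr, with Emcn at 0 counts in every library. The sum of 8 T cell markers was at most 52.7 CPM and that of 8 NK cell markers at most 121 CPM, both reached in cDC2, while neutrophil, erythroid and platelet markers summed to at most 75.4, 78.2 and 3.18 CPM in any library, and the part of any other cell type in the results below was not tested.

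All 10 receptor genes had reads, and 9 had enough to be tested among 13819 genes, the exception being S1pr3. In pDC against cDC1, 6 of the 9 receptors were called (edgeR quasi-likelihood test, Benjamini-Hochberg adjusted p under 0.05), beside 48.6% of all genes tested. Of these, 4 were higher in pDC (24.3% of all genes) and 2 were lower (24.4% of all genes). In pDC against cDC2, 4 of 9 were called, beside 45.8% of all genes, with 3 higher in pDC (22.5% of all genes) and 1 lower (23.3% of all genes). When the replicate number entered as a block, the count in this comparison rose to 7 of 9, as Gpr183, P2ry10 and Ptger4 also passed, beside 55.5% of all genes called in the same fit. In cDC2 against cDC1, 6 of 9 were called, beside 24.4% of all genes, with 2 higher in cDC2 (12.7% of all genes) and 4 lower (11.7% of all genes). The receptors' median log2 fold change was 0.35 in pDC against cDC1, 0.32 in pDC against cDC2 and -0.38 in cDC2 against cDC1, where the medians of all genes were 0.02, -0.01 and 0.03. The 3 comparisons share libraries. Each of the 16 calls had the same sign in 3 of 3 same-numbered pairs of libraries. The pairs use the same values as the calls, and the share over all called genes was not counted, so this adds no separate support.

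**Figure D1:**
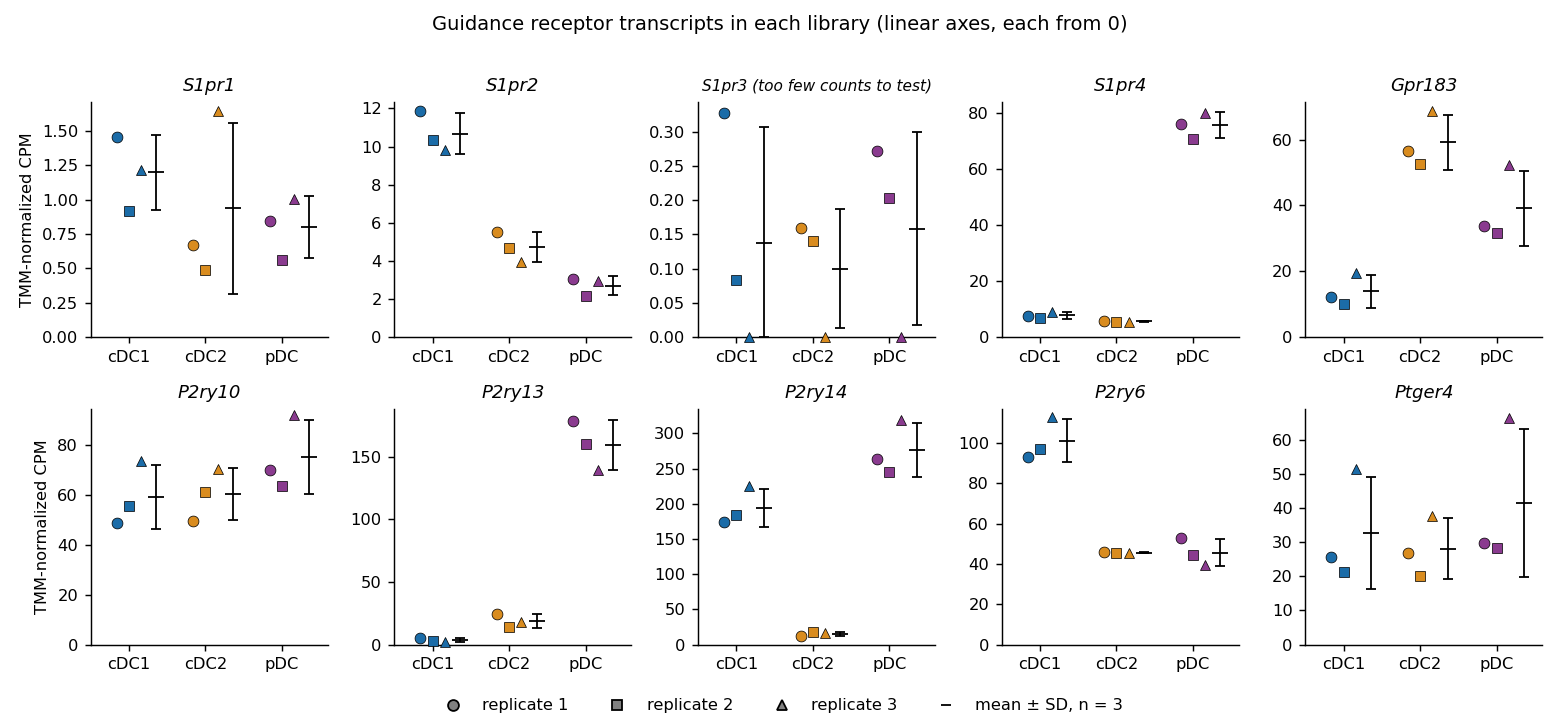
TMM-normalized CPM of the 10 receptor genes in each of the 9 libraries, on linear axes that start at 0 and differ between panels; marker shapes give the replicate number and the black bar the mean ± SD (n = 3), cut at 0. S1pr4 and P2ry13 stand highest in pDC, P2ry14 is high in pDC and cDC1 and low in cDC2, Gpr183 is lowest in cDC1, and S1pr2 and P2ry6 are highest in cDC1.

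**Figure D2:**
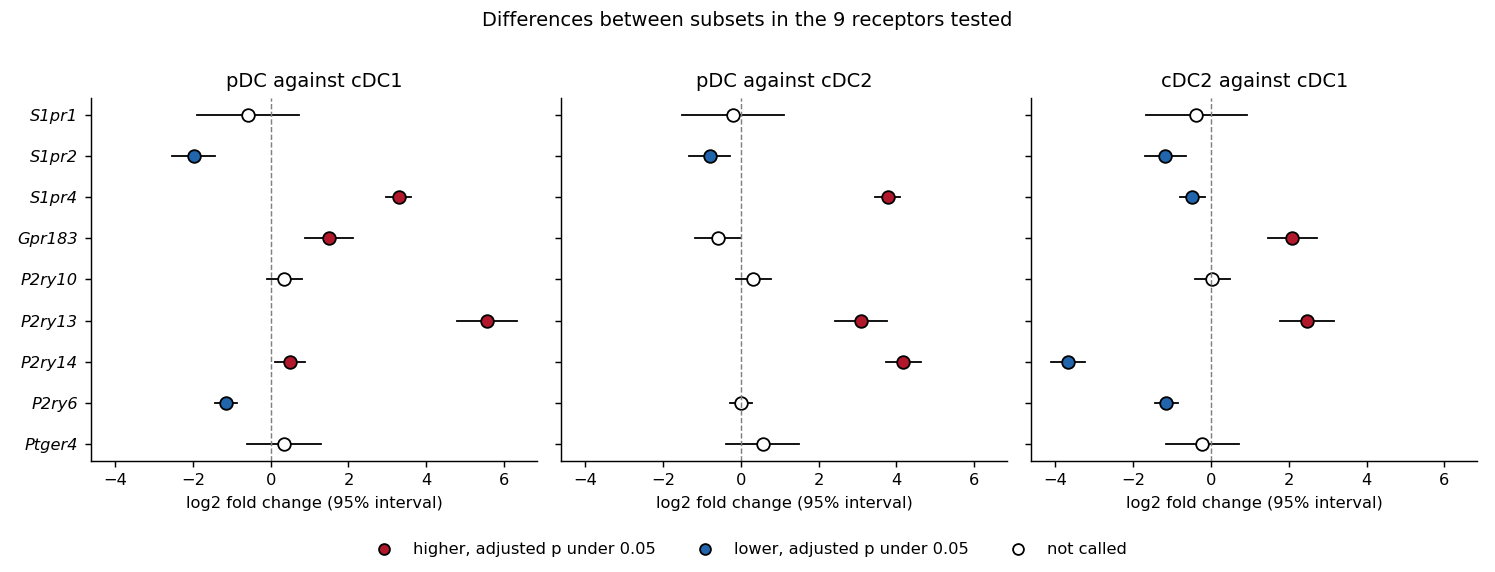
Log2 fold changes of the 9 tested receptors in the 3 comparisons, with 95% intervals; red and blue points passed an adjusted p of 0.05 (edgeR quasi-likelihood test) and white points did not. The 3 largest values are P2ry13 in pDC against cDC1 (5.56), P2ry14 in pDC against cDC2 (4.18) and S1pr4 in pDC against cDC2 (3.77).

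Among the S1P receptors, S1pr4 was the one that marked pDC. S1pr4 stood at 76.0, 70.8 and 80.002 CPM in pDC replicates 1, 2 and 3, at 7.58, 6.59 and 9.01 CPM in cDC1, and at 5.71, 5.50 and 5.37 CPM in cDC2. The lowest pDC library was far above the highest library of either conventional subset, and the lowest cDC1 library was also above the highest cDC2 library. In pDC, S1pr4 was 9.82-fold higher than in cDC1 (log2 fold change 3.30, SE 0.15, adjusted p 1.32e-07, edgeR quasi-likelihood test) and 13.7-fold higher than in cDC2 (log2 fold change 3.77, SE 0.15, adjusted p 1.03e-07). The difference between cDC2 and cDC1 was small, at a log2 fold change of -0.48 (SE 0.14, adjusted p 0.0336), and it was not called in 10 of 18 alternative fits, 6 of which left out a single library (adjusted p between 0.0593 and 0.0826). In RNA from a sorted pool, more cells holding a transcript and more transcript in each cell cannot be told apart. S1pr4 (ENSMUSG00000044199) has a single exon at chr10:81497747-81500132 in GRCm38, and no exon of another gene overlaps it.

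S1pr2, whose product opposes migration, ran the other way, from cDC1 down to pDC. It stood at 11.9, 10.3 and 9.82 CPM in cDC1, at 5.51, 4.69 and 3.93 CPM in cDC2, and at 3.03, 2.13 and 2.95 CPM in pDC. The 3 groups did not overlap, although the highest pDC library came within 1 CPM of the lowest cDC2 library. S1pr2 was 3.94-fold lower in pDC than in cDC1 (log2 fold change -1.98, SE 0.24, adjusted p 9.70e-05) and 2.26-fold lower in cDC2 than in cDC1 (log2 fold change -1.18, SE 0.23, adjusted p 0.00477). Its further difference between pDC and cDC2 was a log2 fold change of -0.80 (SE 0.24, adjusted p 0.0202), which did not pass without cDC2 replicate 1 (adjusted p 0.0834), cDC2 replicate 2 (adjusted p 0.0501) or pDC replicate 2 (adjusted p 0.0687). These levels rest on 42 to 326 counts per library, and S1pr2 (ENSMUSG00000043895) lies at chr9:20962361-20976781 on the minus strand.

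S1pr1, the receptor for exit into blood and lymph, was barely present, with 11 to 40 counts per library. It stood at 1.46, 0.917 and 1.22 CPM in cDC1, at 0.669, 0.490 and 1.65 CPM in cDC2, and at 0.848, 0.558 and 1.00 CPM in pDC. The groups overlapped in every comparison, and cDC2 replicate 3 held the highest value of all 9 libraries. None of the 3 differences passed the test (adjusted p 0.448 in pDC against cDC1, 0.809 in pDC against cDC2 and 0.711 in cDC2 against cDC1), and the 95% interval for pDC against cDC1 ran from -1.88 to 0.73 on the log2 scale, so a change of severalfold in one direction was not detectable at this depth. S1pr3 was lower still, with 9, 2 and 0 counts in cDC1, 5, 4 and 0 in cDC2 and 9, 4 and 0 in pDC. Replicate 3 had no S1pr3 read in any subset. At the floor of 3 counts these libraries allowed up to 0.190 CPM in cDC1, 0.163 CPM in cDC2 and 0.175 CPM in pDC. These 3 limits are on raw library totals, without the TMM correction. S1pr1 (ENSMUSG00000045092) lies at chr3:115710433-115715072 on the minus strand, and S1pr3 (ENSMUSG00000067586) at chr13:51408639-51422797 on the plus strand.

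Per length of the principal transcript, S1pr4 was the leading S1P receptor transcript in all 3 subsets, but its share differed. S1pr4 made up 97.2% ± 0.775 (SD, n = 3) of the summed CPM per kb of the 5 S1P receptors in pDC, 58.6% ± 4.73 in cDC1 and 56.4% ± 1.51 in cDC2. For S1pr2 the share was 30.5% ± 4.15 among cDC1, 17.9% ± 2.94 among cDC2 and 1.29% ± 0.172 among pDC. The sum itself was 32.6 ± 2.07 CPM per kb in pDC, 5.51 ± 0.649 in cDC1 and 4.11 ± 0.0179 in cDC2. The fifth receptor, S1pr5, known from NK cells, stood at 1.81 ± 0.351 CPM for cDC2, 0.455 ± 0.256 for cDC1 and 0.503 ± 0.460 for pDC, and its difference between pDC and cDC2 passed with the replicate block but not without it (log2 fold change -2.09, adjusted p 0.0446, against -1.78 and 0.0710). The 8 NK cell markers also had their highest sum in cDC2, at 28.2 to 121 CPM, and their part in the S1pr5 value was not tested.

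**Figure D3:**
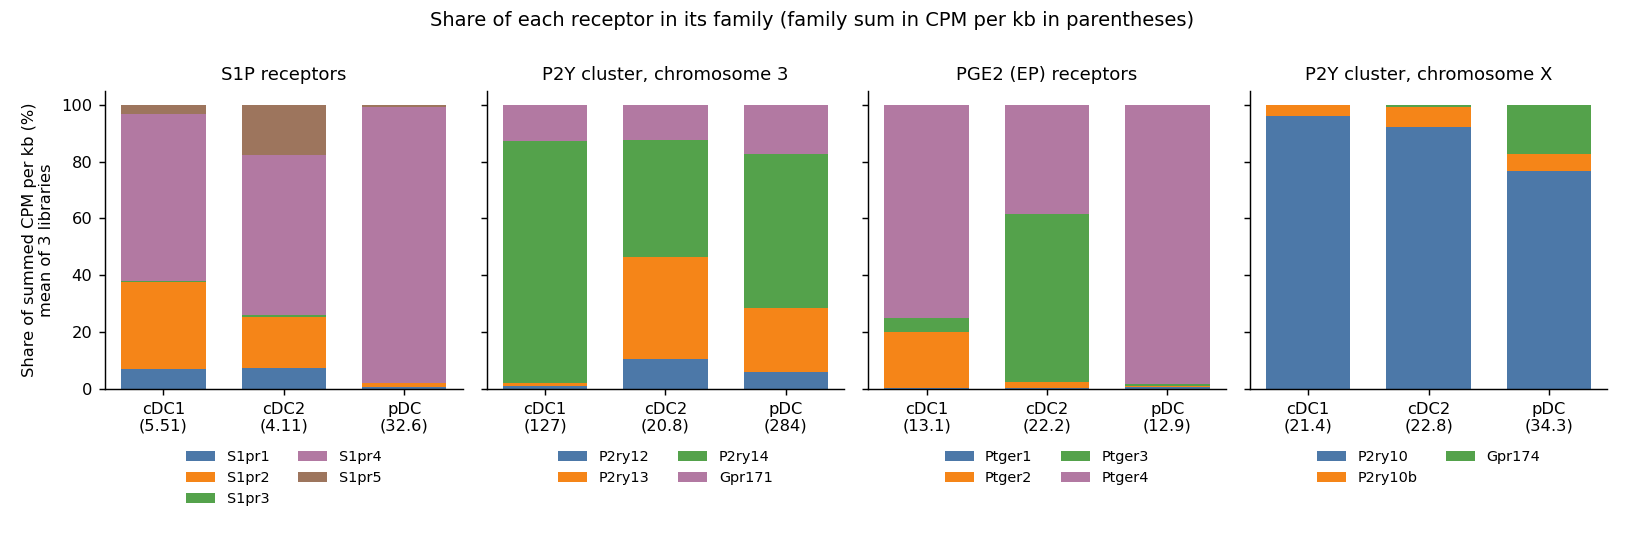
Share of each receptor in the summed CPM per kb (principal transcript) of 4 receptor families, as the mean of 3 libraries in each subset, with the family's mean sum in CPM per kb in parentheses. S1pr4 takes 97.2% of the S1P receptor sum in pDC, Ptger3 takes 59.2% of the PGE2 receptor sum in cDC2, and Gpr174 takes 17.4% of its chromosome X cluster in pDC.

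Gpr183, the oxysterol receptor, was highest in cDC2 and lowest in cDC1. It stood at 56.4, 52.4 and 68.6 CPM in cDC2, at 33.8, 31.5 and 52.3 CPM in pDC, and at 12.3, 9.97 and 19.6 CPM in cDC1. The 3 groups did not overlap, but pDC replicate 3 reached almost to cDC2 replicate 2, and replicate 3 was the highest library in each subset. Gpr183 was 4.27-fold higher in cDC2 than in cDC1 (log2 fold change 2.09, SE 0.28, adjusted p 0.000427) and 2.83-fold higher in pDC than in cDC1 (log2 fold change 1.499, SE 0.27, adjusted p 0.00134). The lower level in pDC than in cDC2 was a log2 fold change of -0.60 (SE 0.26), seen in 3 of 3 same-numbered pairs, with an adjusted p of 0.0944. When the replicate number entered as a block this difference was called (log2 fold change -0.63, adjusted p 0.00157), as it was without pDC replicate 3 (log2 fold change -0.85, adjusted p 0.0227) and without cDC1 replicate 3 (log2 fold change -0.61, adjusted p 0.0408), a library outside the comparison that enters through the shared estimate of the spread. Gpr183 (ENSMUSG00000051212) lies at chr14:121952551-121965195 on the minus strand, inside the span of Ubac2 on the opposite strand, with no overlapping exons, and Ubac2 itself stood at 98.7 ± 18.6 CPM for cDC1, 178 ± 14.9 for cDC2 and 73.2 ± 14.5 for pDC.

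Around GPR183, the gene that removes its ligand, Hsd3b7, was highest in cDC1, the subset with the lowest receptor level. Of 6 tested genes on the oxysterol list, 3 were lower (all genes 24.4%) and 0 higher (all genes 24.3%) in pDC than in cDC1. Against cDC2, pDC had 1 lower (all genes 23.3%) and 2 higher (all genes 22.5%). cDC2 against cDC1 had 4 lower (66.7%, all genes 11.7%) and 1 higher (16.7%, all genes 12.7%). The median log2 fold changes were -0.33, 0.17 and -0.65. Hsd3b7, which removes the ligand, stood at 58.9 ± 8.26 CPM for cDC1, 12.4 ± 0.706 for cDC2 and 18.3 ± 2.10 for pDC, and its fold change between cDC2 and cDC1 was -2.24 on the log2 scale (SE 0.15, adjusted p 7.47e-06). Cyp7b1, a synthetic enzyme, was low throughout, at 6.13 ± 4.43 CPM for cDC1, 4.82 ± 1.29 for pDC and 1.00 ± 0.466 for cDC2, and was called lower in cDC2 than in both others (adjusted p 0.00822 against cDC1 and 0.00855 against pDC). The highest cDC1 value, 11.2 CPM, was in replicate 3, and without that library cDC2 differed from cDC1 by -1.87 on the log2 scale in place of -2.60 (adjusted p 0.0230). Cyp27a1, a sterol hydroxylase, stood at 124 ± 1.45 CPM for cDC1, 68.5 ± 5.76 for cDC2 and 76.1 ± 6.00 for pDC. Nr1h3, which encodes the oxysterol-sensing nuclear receptor LXR alpha, was the gene of the list that was higher in cDC2, at 18.3 ± 3.29 CPM against 3.00 ± 2.03 for cDC1 and 4.30 ± 2.21 for pDC. Ch25h, the enzyme that makes the precursor, had too few reads for a test and reached 1.53 CPM only in pDC replicate 3, with 0 to 0.152 CPM in the other 8 libraries.

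The 2 P2Y genes that lie together on chromosome 3 both favored pDC and differed in the conventional subsets. P2ry13, for an ADP receptor, stood at 179, 159.9 and 139 CPM in pDC, at 24.4, 13.7 and 18.1 CPM in cDC2, and at 5.06, 2.59 and 2.23 CPM in cDC1. The groups were well apart, with each pDC library at least 139 CPM and no cDC1 library above 5.06 CPM. P2ry13 was 47.1-fold higher in pDC than in cDC1 (log2 fold change 5.56, SE 0.34, adjusted p 1.02e-06), 8.49-fold higher in pDC than in cDC2 (log2 fold change 3.09, SE 0.30, adjusted p 2.10e-05) and 5.55-fold higher in cDC2 than in cDC1 (log2 fold change 2.47, SE 0.31, adjusted p 0.000323). All 3 calls held in all 18 alternative fits.

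P2ry14, for a receptor of UDP-glucose, was high in pDC and cDC1 and low in cDC2. It stood at 264, 245 and 319 CPM in pDC, at 174, 184 and 225 CPM in cDC1, and at 11.7, 17.9 and 16.3 CPM in cDC2. No group overlapped another, and the cDC2 libraries lay far below all others. The level in cDC2 was 18.1-fold below that in pDC (log2 fold change of pDC against cDC2 4.18, SE 0.20, adjusted p 2.15e-07) and 12.7-fold below that in cDC1 (log2 fold change -3.67, SE 0.19, adjusted p 2.23e-06). Between pDC and cDC1 the log2 fold change was 0.51 (SE 0.17, adjusted p 0.0338), a call lost in 6 of 18 alternative fits, among them those without cDC1 replicate 1 (adjusted p 0.119), cDC1 replicate 2 (adjusted p 0.0971), cDC2 replicate 3 (adjusted p 0.0529), pDC replicate 1 (adjusted p 0.0586) or pDC replicate 3 (adjusted p 0.0996). With the replicate block it was called (adjusted p 0.00442).

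P2ry14 (ENSMUSG00000036381, chr3:59113855-59153618) and P2ry13 (ENSMUSG00000036362, chr3:59207892-59210882) are 54273 bases apart on the minus strand, between the related genes Gpr171 and P2ry12, and the near end of P2ry12 lies 5389 bases from P2ry13. The relatives did not share 1 pattern. P2ry12, for another ADP receptor, stood at 39.5 ± 10.7 CPM for pDC, 5.26 ± 1.14 for cDC2 and 3.23 ± 1.04 for cDC1, an order like that of P2ry13, with called differences between pDC and both others (log2 fold changes 3.63 and 2.91, adjusted p 6.44e-06 and 2.42e-05), while the difference of cDC2 from cDC1 was called with the replicate block but not without it (log2 fold change 0.74, adjusted p 0.0104, against 0.72 and 0.105). Gpr171 stood at 112 ± 44.3 CPM for pDC, 36.4 ± 8.97 for cDC1 and 5.94 ± 3.01 for cDC2, an order like that of P2ry14, with all 3 differences called (adjusted p between 2.00e-05 and 0.00422). Med12l, whose span on the opposite strand holds the cluster, stood at 3.48 ± 0.357 CPM for pDC, 2.59 ± 0.131 for cDC1 and 0.403 ± 0.362 for cDC2, with at most 121 counts in a library, and its exons do not overlap those of P2ry13 or P2ry14.

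Per kb of the principal transcript, P2ry14 led the members in cDC1 (108 ± 15.0 CPM per kb) and pDC (154 ± 21.5), and P2ry6 led in cDC2 (23.5 ± 0.0349). The order of genes within a subset depended on the length used, most of all for P2ry14, whose 9 annotated transcripts span 11059 bases of exon against 1795 in the principal one. With the union of exons, P2ry14 was at 24.96 CPM per kb in pDC, below P2ry13 at 62.9, S1pr4 at 31.7 and, within its spread, P2ry10 at 25.2, and at 17.6 CPM per kb in cDC1, below P2ry6 at 35.1 and P2ry10 at 19.9, while in cDC2 P2ry6 was at 15.8, below Gpr183 at 20.5 and P2ry10 at 20.3. Next below the leaders on the principal transcript stood P2ry13 in pDC (62.9 ± 7.83) and P2ry6 in cDC1 (52.0 ± 5.42). In cDC2, P2ry6, Gpr183 (21.7 ± 3.09) and P2ry10 (20.9 ± 3.63) lay within their spread of one another. S1pr1 and S1pr3 were the 2 lowest members in every subset on either length.

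P2ry6, for a UDP receptor, set cDC1 apart from the other subsets. It stood at 93.3, 97.2 and 113 CPM in cDC1, at 45.7, 45.7 and 45.6 CPM in cDC2, and at 52.9, 44.5 and 39.7 CPM in pDC. The cDC1 libraries lay above all others, and the cDC2 values fell inside the range of the pDC values. P2ry6 was 2.21-fold lower in pDC (log2 fold change -1.15, SE 0.13, adjusted p 5.52e-05) and 2.22-fold lower in cDC2 (log2 fold change -1.15, SE 0.13, adjusted p 0.000158) than in cDC1. Between pDC and cDC2 the log2 fold change was 0.00 (adjusted p 0.994), with a 95% interval from -0.29 to 0.29. P2ry6 (ENSMUSG00000048779) lies at chr7:100937630-100974649 on the minus strand.

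P2ry10, for a lysophosphatidylserine receptor, was among the more abundant members in each subset, and its largest log2 fold change, 0.35, was the smallest such value among the 9 tested receptors. It stood at 48.9, 55.5 and 73.5 CPM in cDC1, at 49.6, 61.1 and 70.5 CPM in cDC2, and at 70.1, 63.6 and 92.2 CPM in pDC. The ranges overlapped in all 3 comparisons, and replicate 3 was the highest library in each subset. None of the differences was called without a block (adjusted p 0.184, 0.230 and 0.945), and the 95% intervals of the 2 pDC comparisons ended at 0.80 and 0.77 on the log2 scale. Blocked by replicate number, P2ry10 was higher in pDC than in cDC1 (log2 fold change 0.35, adjusted p 0.0117) and than in cDC2 (log2 fold change 0.32, adjusted p 0.0201), in 3 of 3 same-numbered pairs each.

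P2ry10 (ENSMUSG00000050921, chrX:107088492-107104974, plus strand) shares 86 of its 2979 transcript windows of 75 bases, the read length, with its neighbor P2ry10b, which lies 43952 bases away, so a small part of its reads could have been counted on either gene or on none. P2ry10b stood at 2.42 ± 0.514 CPM for cDC1, 5.25 ± 2.25 for cDC2 and 6.37 ± 2.05 for pDC, far below P2ry10, with a call in pDC against cDC1 (adjusted p 0.0136, but 0.0521 without cDC1 replicate 1 and 0.0503 without cDC1 replicate 3) and, with the replicate block but not without it, in cDC2 against cDC1 (log2 fold change 1.01, adjusted p 0.0485, against 1.10 and 0.0646). Gpr174, the next gene of this family along the chromosome and also a lysophosphatidylserine receptor, had larger log2 fold changes between pDC and the other subsets than P2ry10, a contrast between the genes that was not tested. It stood at 25.4, 21.1 and 47.9 CPM in pDC and between 0.167 and 1.23 CPM in the other 6 libraries (log2 fold change 7.05, SE 0.59, adjusted p 6.75e-06 against cDC1 and 5.48, SE 0.51, adjusted p 1.67e-05 against cDC2, or 6.21 without cDC2 replicate 2). Gpr174 held 17.4% ± 3.39 of the summed CPM per kb of the 3 genes in pDC and 0.597% ± 0.388 in cDC2.

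Ptger4, for the prostaglandin E2 receptor EP4, overlapped between the subsets in every comparison and was called only with the replicate block. It stood at 25.6, 21.2 and 51.6 CPM in cDC1, at 26.8, 19.95 and 37.6 CPM in cDC2, and at 29.7, 28.4 and 66.5 CPM in pDC. In each subset replicate 3 was the highest library, and the range over a subset's libraries was wider than any difference between subset means. No comparison was called without a block (adjusted p 0.537, 0.312 and 0.773), while with the replicate block Ptger4 was higher in pDC than in cDC2 (log2 fold change 0.49, adjusted p 0.0119), in 3 of 3 same-numbered pairs. Ptger4 (ENSMUSG00000039942) lies at chr15:5206661-5244187 on the minus strand. Exons of Gm15937 and Ttc33 on the opposite strand cover 16.5% of its exon bases, Gm15937 had at most 1 count in a library, and Ttc33, which shares the smaller part of those bases, stood at 18.0 ± 1.68 CPM for cDC1, 20.2 ± 0.839 for cDC2 and 25.4 ± 3.57 for pDC.

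Of the other prostaglandin E2 receptors, Ptger3 was highest in cDC2 and Ptger2 in cDC1. Ptger3 stood at 44.7, 43.2 and 35.3 CPM in cDC2, at 2.22, 1.04 and 3.05 CPM in cDC1 and at 0.484, 0.304 and 0 CPM in pDC, and its difference between cDC2 and cDC1 was a log2 fold change of 4.31 (SE 0.48, adjusted p 0.000146). Ptger2 was highest in cDC1, at 7.54, 9.17 and 9.41 CPM, against 0.542 to 3.83 CPM in cDC2 and 0 to 0.182 CPM in pDC. The cDC2 library with 3.83 CPM was replicate 3, and the call between cDC2 and cDC1 (log2 fold change -2.24, adjusted p 0.0337) was lost when cDC1 replicate 1, 2 or 3 or cDC2 replicate 1 or 2 was left out (adjusted p between 0.0767 and 0.119), while without cDC2 replicate 3 the log2 fold change was -3.30 (adjusted p 0.00442). Ptger1 had too few reads for a test, with at most 18 counts in a library. Ptger4 held 98.2% ± 1.72 of the summed CPM per kb of the 4 receptors in pDC, 74.9% ± 6.26 in cDC1 and 38.3% ± 9.13 in cDC2, where Ptger3 held 59.2% ± 11.0.

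Several receptors moved with the replicate number as well as with the subset. Gpr183, P2ry10 and Ptger4 had their highest value in replicate 3 in all 3 subsets, as did 2397 of 13819 tested genes (17.3%), and replicate 3 had the fewest counts of its subset each time. The ratio of replicate 3 to the mean of the other 2, on the log2(CPM + 1) scale, was, for cDC1, cDC2 and pDC respectively, 2.16, 1.60 and 2.25 for Ptger4 and 1.70, 1.26 and 1.58 for Gpr183. The ratios were 2.91, 2.08 and 3.21 for Fos, an immediate early gene picked after its values were seen, and 2.14, 1.71 and 5.26 for Cd69, whose product binds S1PR1 and removes it from the surface. Klf2, which encodes a factor that drives S1pr1, had ratios of 2.32, 2.65 and 4.15, and S1pr1 itself had ratios of 1.02, 1.68 and 1.18. At the low level of S1pr1 (0.669, 0.490 and 1.65 CPM in cDC2), the added 1 pulls the ratio toward 1. The ratios of S1pr1 and Klf2 therefore cannot be compared on this scale. S1pr4 (1.24, 0.965 and 1.09) and P2ry13 (0.694, 0.990 and 0.824) did not share the shift. The labels give a date code that same-numbered libraries share, and what differed between the dates was not tested.

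**Figure D4:**
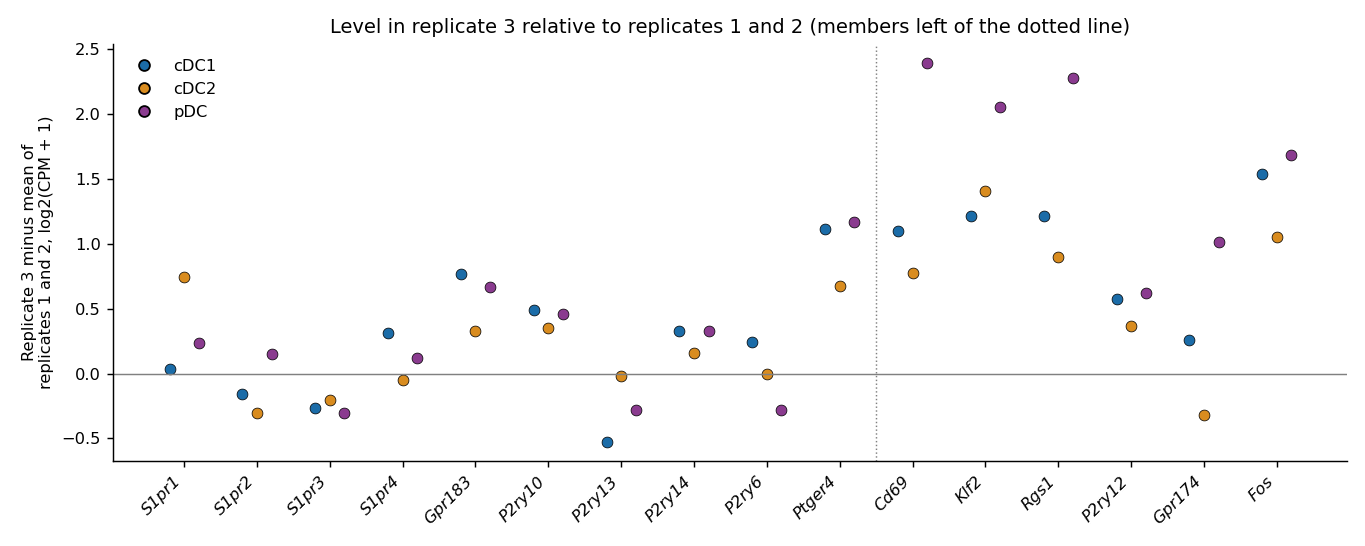
Log2(CPM + 1) in replicate 3 minus the mean of replicates 1 and 2, for each subset, for the 10 receptors and for 6 other genes to the right of the dotted line. Ptger4 lies between 0.68 and 1.17 and Fos between 1.06 and 1.68 in all 3 subsets, while S1pr2, S1pr4 and P2ry6 have values on both sides of 0 and P2ry13 lies below 0.

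The genes whose levels over the 9 libraries ran closest to each receptor were listed by the root mean square (RMS) difference of log2(CPM + 1) values, each centered over the libraries, among 10857 genes with a mean of at least 5 CPM in some subset. This is a description of likeness in these libraries only. P2ry14 ran closest to Irf8 (RMS 0.169), a transcription factor gene of the cDC1 and pDC lineages, followed by Mpeg1 (0.334), for the pore-forming perforin-2, and Tlr12 (0.351). Irf8 stood at 4244 CPM for pDC, 2556 for cDC1 and 269 for cDC2. P2ry13 ran closest to Spib (0.308), a pDC transcription factor gene that stood at 1426 CPM for pDC, 151 for cDC2 and 38.8 for cDC1, followed by Lrp8 (0.320) and Lair1 (0.328), for an inhibitory collagen receptor. S1pr4 ran closest to Traf4 (0.172), Gm19705 (0.177) and Padi1 (0.180). Gm19705 and Padi1 stood at 8.61 and 12.1 CPM for pDC, and their means in the other subsets did not exceed 0.167 CPM. At such low levels the added 1 shrinks fold differences, so the likeness of Gm19705 and Padi1 to S1pr4 holds on this scale only. Gpr183 ran closest to Wls (0.180), Zfyve28 (0.229) and Stk17b (0.234), and S1pr2 to Itpripl2 (0.115), Nup93 (0.146) and Gas2l1 (0.147). P2ry6 ran closest to Ttc7b (0.121), Ptplb (0.124) and H2-DMb1 (0.124), P2ry10 to Zyx (0.104), Azin1 (0.105) and Cnot7 (0.107), and Ptger4 to Siah2 (0.154), Arf4 (0.192) and Mfsd3 (0.203).

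Around the S1P receptors, 19 genes were tested on a list of S1P supply, transport and breakdown that also holds the receptor gene S1pr5. Against cDC1, pDC had 4 higher (21.1%, all genes 24.3%) and 5 lower (26.3%, all genes 24.4%), median log2 fold change 0.29. Against cDC2, pDC had 7 higher (36.8%, all genes 22.5%) and 3 lower (15.8%, all genes 23.3%), median 0.36. cDC2 against cDC1 had 1 higher (5.3%, all genes 12.7%) and 6 lower (31.6%, all genes 11.7%), median -0.12. With the replicate block, the count called in pDC against cDC1 rose from 9 to 14, beside 58.6% of all genes called in that fit. The clearest member of the list was Plpp1, a membrane phosphatase that acts on S1P and other lipid phosphates, which stood at 97.8, 96.9 and 122 CPM in cDC1, at 3.51, 6.02 and 6.38 CPM in cDC2 and at 1.70, 0.862 and 0 CPM in pDC (adjusted p 0.000237 between cDC2 and cDC1 and 1.15e-05 between pDC and cDC1). Of the kinases, Sphk2 stood at 56.0 ± 4.402 CPM for cDC1, 39.5 ± 1.20 for cDC2 and 41.9 ± 0.912 for pDC, and Sphk1 did not exceed 1.30 CPM in any library. Sgpl1, the lyase that breaks S1P down, was lower in pDC, at 198 ± 19.6 CPM against 257 ± 19.1 for cDC1 and 272 ± 29.4 for cDC2 (log2 fold changes -0.38 and -0.46, adjusted p 0.0234 and 0.00935), the first of which was lost without cDC1 replicate 1 (adjusted p 0.0691) or pDC replicate 2 (adjusted p 0.0652). Of the ceramide synthases, Cers6 rose from 17.2 ± 1.15 CPM in cDC1 to 71.0 ± 4.402 in cDC2 and 97.5 ± 15.7 in pDC, although the step from cDC2 to pDC (adjusted p 0.0164) was lost without cDC2 replicate 1 or 3 or pDC replicate 2 (adjusted p between 0.0515 and 0.0674), and Cers4 was highest in pDC at 11.7 ± 2.35 CPM. Spns2, an S1P exporter, stood at 2.69, 2.53 and 9.48 CPM in pDC and at most 1.56 CPM elsewhere, and its calls in pDC (adjusted p 0.0293 against cDC1 and 0.0302 against cDC2) were lost without pDC replicate 3 (adjusted p 0.113 and 0.118), against cDC1 without cDC1 replicate 1, 2 or 3 (adjusted p between 0.0635 and 0.0981), against cDC2 without cDC2 replicate 2 or 3 (adjusted p 0.0681 and 0.0576) and, against cDC2, with the replicate block (log2 fold change 2.05, adjusted p 0.0567).

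The tested genes for other P2Y-like, lysolipid, adenosine, leukotriene and fatty acid receptors numbered 25. Of these, 6 were higher (all genes 24.3%) and 9 lower (all genes 24.4%) in pDC than in cDC1, median log2 fold change -0.15. In pDC against cDC2, 4 were higher (all genes 22.5%) and 12 lower (all genes 23.3%), median -1.02. In cDC2 against cDC1, 8 were higher (all genes 12.7%) and 4 lower (all genes 11.7%), median 0.72. Gpr174, Gpr171 and P2ry12, described above, were among those higher in pDC. Ffar2, a receptor for short-chain fatty acids, stood at 386 ± 58.5 CPM for cDC2, 64.8 ± 6.94 for cDC1 and 2.97 ± 2.03 for pDC, with all 3 differences called (adjusted p between 3.27e-06 and 0.00137). Gpr34, another lysophosphatidylserine receptor, was high in both conventional subsets, at 76.0 ± 13.1 CPM for cDC1 and 72.5 ± 12.7 for cDC2, and stood at 3.59 ± 1.47 in pDC (adjusted p 1.53e-06 and 1.80e-06). Adora3, an adenosine receptor, was highest in cDC1 at 40.5 ± 1.89 CPM, against 4.21 ± 1.37 for cDC2 and 1.12, 0.355 and 0 CPM for the pDC libraries. Ltb4r1, a leukotriene B4 receptor, was highest in cDC2, at 9.47 ± 1.78 CPM against 0.849 ± 0.634 for cDC1 and 0.958 ± 0.854 for pDC (adjusted p 0.00509 and 0.00326).

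The tested genes that release, cut or sense extracellular nucleotides numbered 14. Against cDC1, pDC had 3 higher (21.4%, all genes 24.3%) and 4 lower (28.6%, all genes 24.4%), median log2 fold change -0.30. Against cDC2, pDC had 5 higher (35.7%, all genes 22.5%) and 5 lower (35.7%, all genes 23.3%), median -0.14. cDC2 against cDC1 had 2 higher (14.3%, all genes 12.7%) and 4 lower (28.6%, all genes 11.7%), median -0.07. The count of 10 in pDC against cDC2 fell to 6 without cDC2 replicate 3 or without pDC replicate 1. In these fits 41.9% and 40.3% of all genes were called. Panx1, a channel through which ATP and UTP leave cells, stood at 92.8 ± 8.19 CPM for pDC, 50.5 ± 7.39 for cDC2 and 20.5 ± 4.11 for cDC1, with all 3 differences called (adjusted p between 4.20e-06 and 0.00154). Entpd1, which encodes CD39 and cuts ATP and ADP, stood at 94.9 ± 12.1 CPM for cDC1, 96.3 ± 10.2 for cDC2 and 75.8 ± 18.3 for pDC, and no difference was called (adjusted p between 0.135 and 0.951). Enpp4, an enzyme that cuts nucleotides, was lowest in cDC2, at 15.0 ± 1.36 CPM against 71.8 ± 5.84 for cDC1 and 59.4 ± 1.12 for pDC, and the difference of pDC from cDC1 was called with the replicate block but not without it (log2 fold change -0.27 in both, adjusted p 0.0252 against 0.0624). Alpl, a phosphatase, was found almost entirely in cDC1, at 14.3 ± 0.397 CPM against 0 to 0.665 CPM in cDC2 and 0.484 to 1.41 CPM in pDC.

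The tested genes of prostaglandin synthesis and reception numbered 16. Of these, 9 were lower (all genes 24.4%) and 2 higher (all genes 24.3%) in pDC than in cDC1, median log2 fold change -0.69. In pDC against cDC2, 9 were lower (all genes 23.3%) and 2 higher (all genes 22.5%), median -1.83. In cDC2 against cDC1, 5 were higher (all genes 12.7%) and 2 lower (all genes 11.7%), median 0.85. Ptgs2, which encodes the inducible cyclooxygenase, stood at 20.5, 34.4 and 47.1 CPM in cDC2, at 2.15, 1.46 and 15.7 CPM in cDC1, and at 0.333, 0.101 and 1.35 CPM in pDC, and its difference between cDC2 and cDC1 was called with the replicate block but not without it (log2 fold change 3.05, adjusted p 0.00137, against 2.45 and 0.0679). Tbxas1, for thromboxane synthase, stood at 39.3 ± 8.85 CPM for cDC1, 15.6 ± 3.68 for cDC2 and 1.85 ± 0.547 for pDC. The thromboxane receptor gene Tbxa2r was found in pDC, at 76.4, 85.6 and 86.9 CPM, and at no more than 0.364 CPM in the other 6 libraries. Pla2g7, a phospholipase, stood at 71.0 ± 11.7 CPM for cDC2, 7.34 ± 1.56 for cDC1 and 4.61 ± 2.74 for pDC.

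The tested genes for G proteins, RGS proteins and receptor desensitization numbered 32. Of these, 12 were higher (all genes 24.3%) and 9 lower (all genes 24.4%) in pDC than in cDC1, median log2 fold change 0.18. In pDC against cDC2, 13 were higher (all genes 22.5%) and 12 lower (all genes 23.3%), median 0.18. In cDC2 against cDC1, 7 were higher (all genes 12.7%) and 4 lower (all genes 11.7%), median 0.07. The last count, 11 in all, became 22 with the replicate block, where 35.6% of all genes were called, and 21 without replicate 3 of every subset, where 37.7% were. Gna15, a G protein that couples many receptors to phospholipase C, stood at 109 ± 5.76 CPM for pDC, 54.1 ± 8.51 for cDC1 and 14.4 ± 4.07 for cDC2, while Gna13, through which S1PR2 acts on RhoA, stood at 116 ± 2.48, 109 ± 1.36 and 97.4 ± 5.24 CPM in the same order, with a single call, in pDC against cDC2 (log2 fold change 0.25, adjusted p 0.0377), which was lost in 10 of 18 alternative fits, 6 of them without a single library (adjusted p between 0.0601 and 0.140). Gnai1, an inhibitory G protein alpha subunit, had 0 or 1 count in each conventional DC library and 3.51, 3.35 and 13.1 CPM in pDC. Of the genes for receptor desensitization named by size of change, Arrb1, for a beta-arrestin, stood in pDC at 17.8 ± 5.67 CPM against 148 ± 11.53 for cDC1 and 64.8 ± 7.41 for cDC2, and Grk5, for a receptor kinase, at 1.75 ± 0.468 CPM against 27.9 ± 2.95 and 16.8 ± 2.36. Rgs2 stood at 1112 ± 69.5 CPM for cDC2, 503 ± 62.2 for cDC1 and 131 ± 21.6 for pDC, and Rgs3 had the same order, at 66.0 ± 11.4, 22.8 ± 5.30 and 3.08 ± 1.74 CPM.

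Rgs1, Cd69 and Klf2 were each highest in replicate 3 of every subset. Cd69 stood at 17.1, 25.3 and 114 CPM in pDC, at 2.96, 3.05 and 5.85 CPM in cDC2 and at 1.24, 1.17 and 3.72 CPM in cDC1, and was called higher in pDC than in both others (log2 fold changes 4.74 and 3.73, adjusted p 0.000919 and 0.00270). Without pDC replicate 3 these were 3.45 and 2.44, and without cDC1 replicate 3 the first was 5.38, all still called. Rgs1, which dampens chemokine receptor signals, stood at 129, 163 and 271 CPM in cDC2, at 53.1, 30.6 and 94.8 CPM in cDC1 and at 11.99, 13.4 and 65.3 CPM in pDC, and was called lower in pDC than in cDC2 (log2 fold change -2.64, adjusted p 0.01002, and -3.88 without pDC replicate 3). With the replicate block, Rgs1 was also called in pDC against cDC1 (log2 fold change -1.24, adjusted p 0.00971) and in cDC2 against cDC1 (log2 fold change 1.73, adjusted p 0.00251), Cd69 in cDC2 against cDC1 (log2 fold change 1.11, adjusted p 0.0343), and Klf2 in pDC against cDC2 (log2 fold change 0.93, adjusted p 0.00139) and in cDC2 against cDC1 (log2 fold change -0.63, adjusted p 0.0180).

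**Figure D5:**
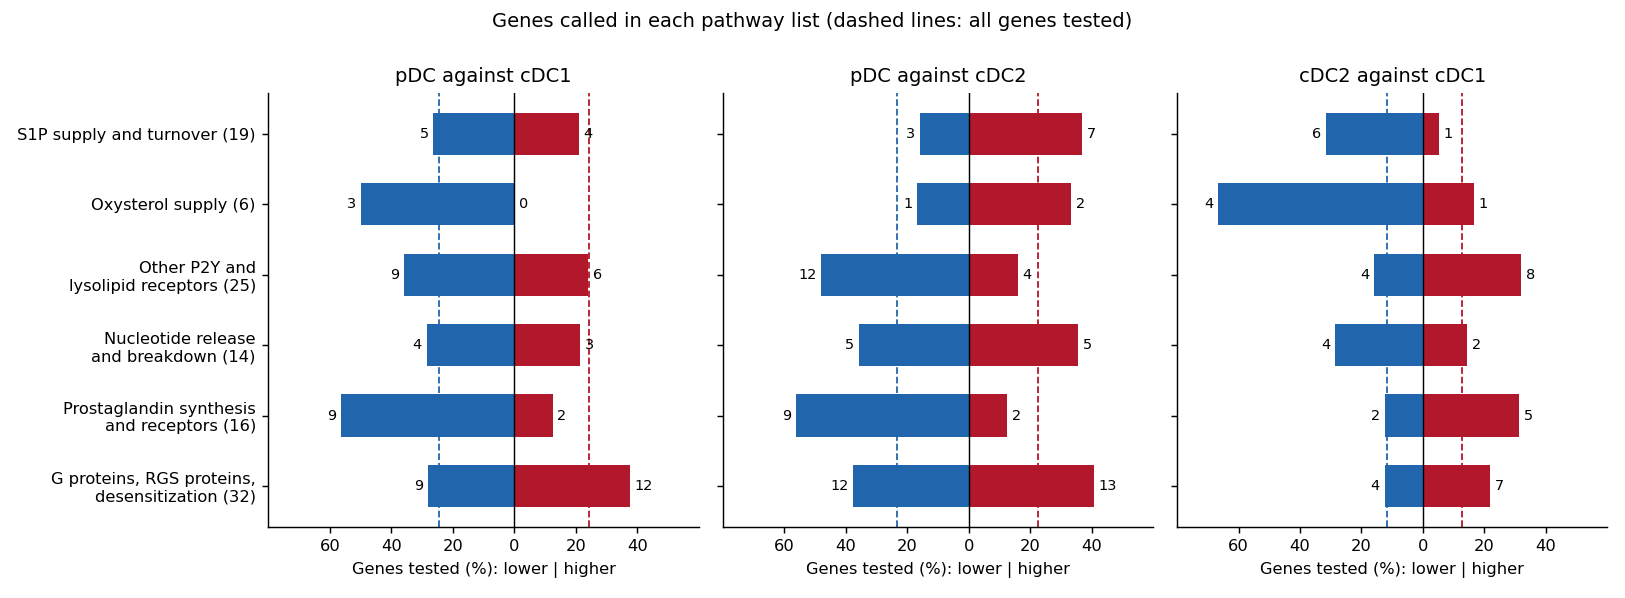
Percentage of the tested genes of each list that were called higher (red, right) or lower (blue, left) in the first subset named, with the number of genes at the end of each bar, the number tested in parentheses, and dashed lines at the percentage over all 13819 genes tested. In pDC the prostaglandin list has 9 genes lower and 2 higher against each conventional subset, counts that fall with at least 10 counts in every library. The oxysterol list has 4 genes lower and 1 higher in cDC2 against cDC1.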

How the data were processed

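RNA from 9 libraries, 3 for each of 3 sorted splenic DC subsets, was read as single-end reads of 75 bases from a stranded mRNA kit. The values are counts of reads per gene, deposited by the authors without normalization in 1 table. The submitters' processing notes name STAR, SAMtools, MultiQC, featureCounts and the build mm10, while versions, the strand setting and the handling of multi-mapped reads are not given in the sources used here.

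Groups came from the labels. Genes passing filterByExpr (minimum count 10), 13819 of 39179, were scaled by TMM and tested across all 9 libraries with the edgeR quasi-likelihood test (edgeR 4.0.16, R 4.3.3) without a block. Calls used a Benjamini-Hochberg adjusted p under 0.05, with the adjustment made over the whole table. The SE is the absolute log2 fold change over the square root of F, and intervals are 95%. Same-numbered libraries share a date code in the labels, and their deviations from subset means correlated at 0.403 on average (0.266 to 0.543 over 9 pairs). The 18 pairs with other numbers had a mean of -0.180. Centering on the mean of 3 libraries ties that value to the first, so it adds no separate support. The replicate number was taken to pair same-numbered libraries. Replicate block, other scalings, filters and thresholds, DESeq2 1.42.0, limma-voom (limma 3.58.1) and leaving out each library were alternatives, and leaving out replicate 3 of every subset was added after seeing the data. Scripts were tested on simulated data. Lengths came from GENCODE annotation of GRCm38, using the principal transcript, and promoter sequences from RefSeq, GRCm38.p6. Figures were drawn with matplotlib 3.10.9.

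The members and the 6 gene lists were chosen with earlier results of these data known, so their counts are descriptions. Genes named from a list were up to 2 per direction and comparison, by size of change among called genes with a mean of at least 100 counts in the higher subset and the same sign in every same-numbered pair, plus a few pathway genes chosen by role. Fos, Med12l, Ubac2, Ttc33 and Gm15937 were named after their values were seen.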

Additional observations from a re-analysis of the deposited data

How the results depend on the processing

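Of 486 alternative values for the 27 receptor comparisons, 442 kept their direction and side of the threshold, 20 lost and 8 gained a call, and 16 changed sign, all of these in comparisons that were not called. In pDC against cDC2 the receptors called rose from 4 to 7 with the replicate block, and the block also added P2ry10 in pDC against cDC1; it changed no other receptor call. Leaving out 1 library gave 5 to 6 called receptors in pDC against cDC1, where 39.9% to 49.8% of all genes were called. In pDC against cDC2 it gave 3 to 5, beside 38.1% to 46.9% of all genes. In cDC2 against cDC1 it gave 5 to 6, beside 17.4% to 28.7% of all genes. S1pr1 in pDC against cDC2 turned to a log2 fold change of 0.045 with limma-voom and 0.30 without replicate 3 of every subset, and ranged from -0.51 to 0.45 over the fits without 1 library. P2ry6 in pDC against cDC2 turned to -0.016 with library size only, -0.012 with upper quartile scaling, -0.00058 with DESeq2, -0.024 with at least 10 counts in every library and -0.0046 with only the 6 libraries compared, and ranged from -0.12 to 0.095 without 1 library. The range without 1 library was -0.12 to 0.18 for P2ry10 in cDC2 against cDC1, -0.16 to 0.78 for Ptger4 in pDC against cDC1 and -0.51 to 0.23 for Ptger4 in cDC2 against cDC1. Scaling by library size only moved the median of all genes from 0.02 to 0.11 in pDC against cDC1 and from 0.03 to 0.14 in cDC2 against cDC1. Over all genes, 3370 were called in cDC2 against cDC1, and 5356 without replicate 3 of every subset. With at least 10 counts in every library, the prostaglandin list had 5 genes called in each pDC comparison in place of 11, since fewer genes were tested. That fit tested 10883 genes, of which 50.02% were called in pDC against cDC1 and 46.11% in pDC against cDC2. The cause of the other changes was not tested. Depth limits S1pr1 and S1pr3 most, which had at most 40 and 9 counts in a library.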
